A study of Mus musculus with 11 samples.

Results

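The genes of MHC class I and of peptide loading were followed in B cell lymphomas of E-mu-BRD2 mice. Of 10 genes named for this set, B2m, H2-K1, H2-D1, Tap1, Tap2, Tapbp, Psmb8, Psmb9 and Psmb10 had probe sets annotated to that gene alone, and these 25 probe sets, of 22690 on the array, are described here, 9 genes of 12393 that had a probe set of their own. H2-T23, a nonclassical class I chain, had none and has no value here, because each probe set that names it also names another gene. Expression was measured in 6 marginal and 5 transitional lymphomas, the class being one of disease severity, and each lymphoma had its own array. The mice of both classes carried BRD2, a bromodomain protein that binds acetylated histones, under the E-mu enhancer of the immunoglobulin heavy chain, which drives expression in the B lineage, on the FVB background, and all 11 tumours were oligoclonal for immunoglobulin. Severe spleen enlargement was recorded for transitional 1 and 2, a moderately severe grade for transitional 4 and 5, a moderate grade for marginal 5 and 6, a mild grade for transitional 3 and for marginal 2, 3 and 4, and a marginal grade for marginal 1 alone. Marginal 1 presented with a neck tumor, marginal 4 with a leg tumor, marginal 5 with a haunch tumor and marginal 6 with paralysis, and the other animals failed to nest. The ages of the mice and the tissue from which the RNA came were not in the labels. Normal B cells and a further severity class were not analysed here, so no value is set against a non-tumour control.

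Class I molecules display peptides from the cell's own proteins to CD8 T cells and are found on nearly all nucleated cells, B cells among them. The proteasome cuts proteins into peptides, and interferon-gamma exchanges its catalytic subunits Psmb5, Psmb6 and Psmb7 for Psmb8, Psmb9 and Psmb10, which form the immunoproteasome. Tap1 and Tap2 together pump the peptides into the endoplasmic reticulum, where Tapbp (tapasin) holds the transporter beside an empty heavy chain such as H2-K1 or H2-D1, which is paired with the invariant light chain B2m. A chain that lacks B2m or a peptide is largely kept from the cell surface.

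Most of these genes lie close together in the MHC, and the stretches before their starts are shown because the genes moved together across the arrays and class I genes are known to be controlled from elements there. RefSeq promoter windows (build GRCm38.p6, 250 bases before to 50 after the annotated start) matched 9 of the 10 genes by symbol, 7 of them on chromosome 17. These are not the 9 measured genes, since Tap2 had no window and H2-T23, which has no signal here, had one. The table gives 2 windows for H2-K1, of which the first was used. All windows come from that build and were not compared with the sequence of FVB mice. The 250 bases before the start follow for the light chain, both heavy chains, a transporter subunit and an immunoproteasome subunit, at chr17:34000348-34000597 (minus strand) for H2-K1, chr17:35262844-35263093 (plus) for H2-D1, chr2:122147437-122147686 (plus) for B2m, chr17:34187306-34187555 (plus) for Tap1 and chr17:34197945-34198194 (plus) for Psmb8. Capitals mark matches, on either strand, to a gamma-activated site (TTCNNNGAA) or to the core of a cyclic AMP response element (TGACG).
H2-K1: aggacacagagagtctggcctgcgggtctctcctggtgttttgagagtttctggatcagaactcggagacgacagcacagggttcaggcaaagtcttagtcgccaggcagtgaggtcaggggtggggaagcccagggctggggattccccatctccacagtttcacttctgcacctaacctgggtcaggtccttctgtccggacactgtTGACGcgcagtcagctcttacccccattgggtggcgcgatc
H2-D1: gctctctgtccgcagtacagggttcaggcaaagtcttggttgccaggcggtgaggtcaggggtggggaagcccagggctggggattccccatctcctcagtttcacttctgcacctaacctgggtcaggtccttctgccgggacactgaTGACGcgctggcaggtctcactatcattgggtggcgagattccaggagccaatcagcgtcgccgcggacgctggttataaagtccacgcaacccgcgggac
B2m: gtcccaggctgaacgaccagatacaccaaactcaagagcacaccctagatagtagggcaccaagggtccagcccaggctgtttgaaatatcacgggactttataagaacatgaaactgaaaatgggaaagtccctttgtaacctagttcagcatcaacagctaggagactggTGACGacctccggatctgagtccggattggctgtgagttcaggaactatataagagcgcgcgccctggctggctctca
Tap1: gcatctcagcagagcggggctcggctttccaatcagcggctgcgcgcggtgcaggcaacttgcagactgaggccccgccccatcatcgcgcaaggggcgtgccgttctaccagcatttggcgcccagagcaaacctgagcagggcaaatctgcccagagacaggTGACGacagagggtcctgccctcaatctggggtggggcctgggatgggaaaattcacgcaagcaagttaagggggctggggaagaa
Psmb8: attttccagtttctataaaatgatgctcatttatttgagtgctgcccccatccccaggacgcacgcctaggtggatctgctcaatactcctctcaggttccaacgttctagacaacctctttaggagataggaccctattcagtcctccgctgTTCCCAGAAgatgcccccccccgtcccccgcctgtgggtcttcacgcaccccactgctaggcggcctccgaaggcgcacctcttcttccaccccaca
The H2-K1 and H2-D1 windows were identical at 211 of 239 aligned bases (88.3%). TGACG began 41 bases before the start of H2-K1, 101 before that of H2-D1, 78 before that of B2m and 86 before that of Tap1. The annotated starts of H2-K1 and H2-D1 lie at unlike points of their matching sequences, so these distances cannot be compared. TGACG stood in 5 of the 9 windows (H2-T23 included, Tap2 missing), against 21% of 27025 mouse promoter windows of this length. Psmb8 held the gamma-activated letters, which began 97 bases before its start, as do 8.47% of all windows. Tap1 and Psmb9 are read in opposite directions from a shared stretch: their windows have 275 bases in common, chr17:34187306-34187580. The TGACG of both is 1 site, chr17:34187470-34187474, so the 5 windows hold 4 separate sites before a start. A match of letters is a description of the sequence and does not show that a factor bound there.

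The signals are MAS5 intensities on a linear scale, and the number of arrays limits the precision. Their 2% trimmed mean was 500.2 on the first array and was not computed for the others. Differences are in log2(signal + 16) and were fitted with limma over the 13576 brighter probe sets. A probe set is called where its Benjamini-Hochberg adjusted p over all of them is under 0.05. Of the 25 class I probe sets, 22 passed this filter on brightness, and the probe sets left out, 1451934_at of H2-D1 and 1449803_x_at and 1420274_at of Tap1, stayed at or below 58.2 on every array. The labels give no animal numbers, and the p-values measure the spread between these samples, which may in part be technical. Median signals ran from 98.8 on transitional 5 and 108 on transitional 4 to 119 to 151 on the other arrays. A probe set whose name ends in x_at can also bind transcripts of related genes, which applies to all 4 H2-K1 probe sets and to 7 of the 9 of H2-D1.

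**Figure D1:**
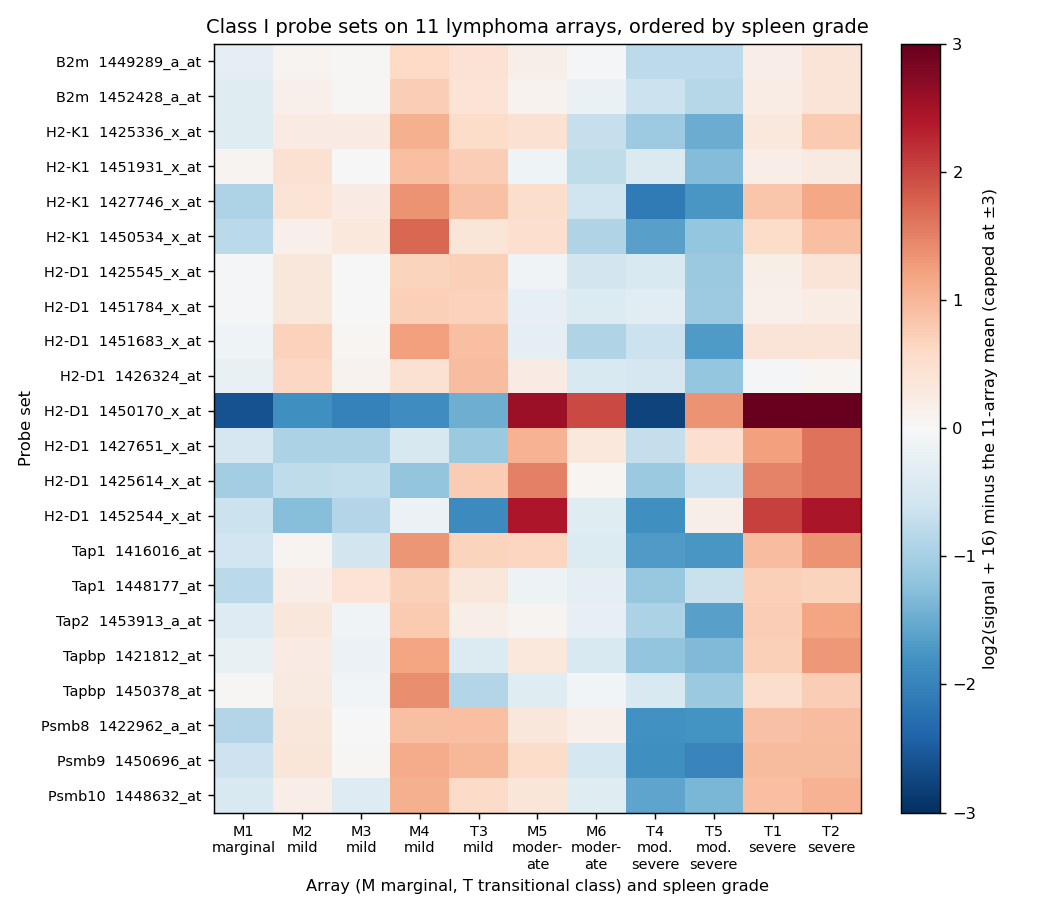
The 22 tested class I probe sets (rows) on the 11 arrays (columns, ordered by spleen grade), coloured by log2(signal + 16) minus the mean over all arrays. Transitional 4 and 5, with moderately severe spleens, are low for most rows, and 4 H2-D1 rows follow another pattern, led by 1450170_x_at, which runs from 129 to 10139.

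The class I genes were lowest in the pair of lymphomas with moderately severe spleens. In transitional 4 and 5 all 9 genes were called lower than in the pair with severe spleens, by 2.08-fold to 7.26-fold on the brightest probe set of each gene. With each array left out in turn, the calls of B2m, H2-K1, H2-D1 and Tapbp did not always hold, though all 9 genes stayed lower. The folds were 2.08 to 3.58 for the light chain and the classical heavy chains and 4.71 to 7.26 for the transporter, tapasin and the immunoproteasome subunits, and the difference between these sets was not tested. Other probe sets crossed these ranges. H2-K1 (1427746_x_at) stood at 7.61-fold, H2-K1 (1450534_x_at) at 4.37-fold and Tapbp (1450378_at, not called) at 2.69-fold, and Tap1 (1448177_at) had a log2 difference of −1.59. Of H2-D1, 1450170_x_at stood at 16.45-fold, 1452544_x_at at 8.48-fold and 1425614_x_at at 5.42-fold, all called lower. The call of 1452544_x_at was lost under quantile normalization (limma adjusted p = 0.0558), with an offset of 1 (0.052) and with no brightness filter (0.052). That of 1450170_x_at was lost in the transitional arrays alone. The moderately severe pair was split for 1450170_x_at, at 129 and 2504. Its log2 difference ran from −6.10 to −1.98 with each array left out in turn. Below the ranges lay H2-D1 1451784_x_at, at 1.89-fold, and 1426324_at, at 1.80-fold and not called.

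B2m (1449289_a_at) read 18439 at the marginal grade, 23795, 22789, 34153 and 30127 at the mild grade, 25436 and 21359 at the moderate grade, 13091 and 12887 at the moderately severe grade, and 25848 and 29194 at the severe grade. The moderately severe pair lay below each of the other 9 arrays, and marginal 4 was highest. The log2 difference of B2m between the moderately severe and the severe pair was −1.08 (SE 0.23, limma adjusted p = 0.00978). H2-K1 (1425336_x_at), a classical heavy chain, read 13203 at the marginal grade, 20198, 20021, 35362 and 24619.9 at the mild, 23122 and 10497 at the moderate, 7940 and 5994 at the moderately severe, and 20999 and 29088 at the severe grade. Its moderately severe arrays were again the lowest, with marginal 6 next, and its log2 difference from the severe pair was −1.84 (SE 0.39, limma adjusted p = 0.01). H2-D1 (1425545_x_at), the other classical chain, read 16341 at the marginal grade, 21126, 16395, 26436 and 27106 at the mild, 15429 and 11387 at the moderate, 12133 and 7693 at the moderately severe, and 18746 and 21671 at the severe grade. Here the groups overlapped, since marginal 6 lay below transitional 4. The log2 difference of H2-D1 from the severe pair was −1.06 (SE 0.30, limma adjusted p = 0.0298), a call that was lost with median scaling (adjusted p = 0.119), with no brightness filter (0.0589) and without the intensity trend (0.0515).

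Tap1 (1416016_at) and Tap2 (1453913_a_at), the subunits of the peptide transporter, had a wider range. Tap1 read 589 at the marginal grade, 940, 594, 2231 and 1401 at the mild, 1379 and 654 at the moderate, 261 and 251 at the moderately severe, and 1697 and 2259.8 at the severe grade. Tap2 read 722 at the marginal grade, 1209, 881, 1659.8 and 1077 at the mild, 999.6 and 804 at the moderate, 488 and 299 at the moderately severe, and 1597 and 2168 at the severe grade. In both genes the moderately severe arrays lay below all others, with marginal 1 next. Their log2 differences from the severe pair were −2.86 (SE 0.55, limma adjusted p = 0.00723) for Tap1 and −2.23 (SE 0.35, adjusted p = 0.00423) for Tap2. Tapbp (1421812_at) read 2565 at the marginal grade, 3546, 2663, 6828 and 2267 at the mild, 3710.3 and 2163 at the moderate, 1319 and 1196 at the moderately severe, and 4939 and 7426 at the severe grade. For tapasin too the moderately severe arrays were the lowest, with marginal 6 next and transitional 2 and marginal 4 highest, and its log2 difference was −2.26 (SE 0.48, limma adjusted p = 0.0102).

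Psmb8 (1422962_a_at), the chymotrypsin-like subunit of the immunoproteasome, read 2835 at the marginal grade, 6531, 5218, 9759 and 9701 at the mild, 6574 and 5772 at the moderate, 1469 and 1497 at the moderately severe, and 9631 and 9857 at the severe grade. Psmb9 (1450696_at) read 2142 at the marginal grade, 4284, 3372, 7225 and 6601 at the mild, 4847 and 2282 at the moderate, 909 and 832 at the moderately severe, and 6399 and 6409.6 at the severe grade. Psmb10 (1448632_at) read 1376 at the marginal grade, 2197, 1448, 4021 and 2822 at the mild, 2436 and 1465 at the moderate, 626 and 728 at the moderately severe, and 3572 and 3915 at the severe grade. For all 3 subunits the moderately severe arrays were the lowest and marginal 1 came next, while the severe pair and marginal 4 were near the top. The log2 differences from the severe pair were −2.70 for Psmb8 (SE 0.31, limma adjusted p = 0.00304), −2.86 for Psmb9 (SE 0.42, adjusted p = 0.00384) and −2.44 for Psmb10 (SE 0.43, adjusted p = 0.00582).

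**Figure D2:**
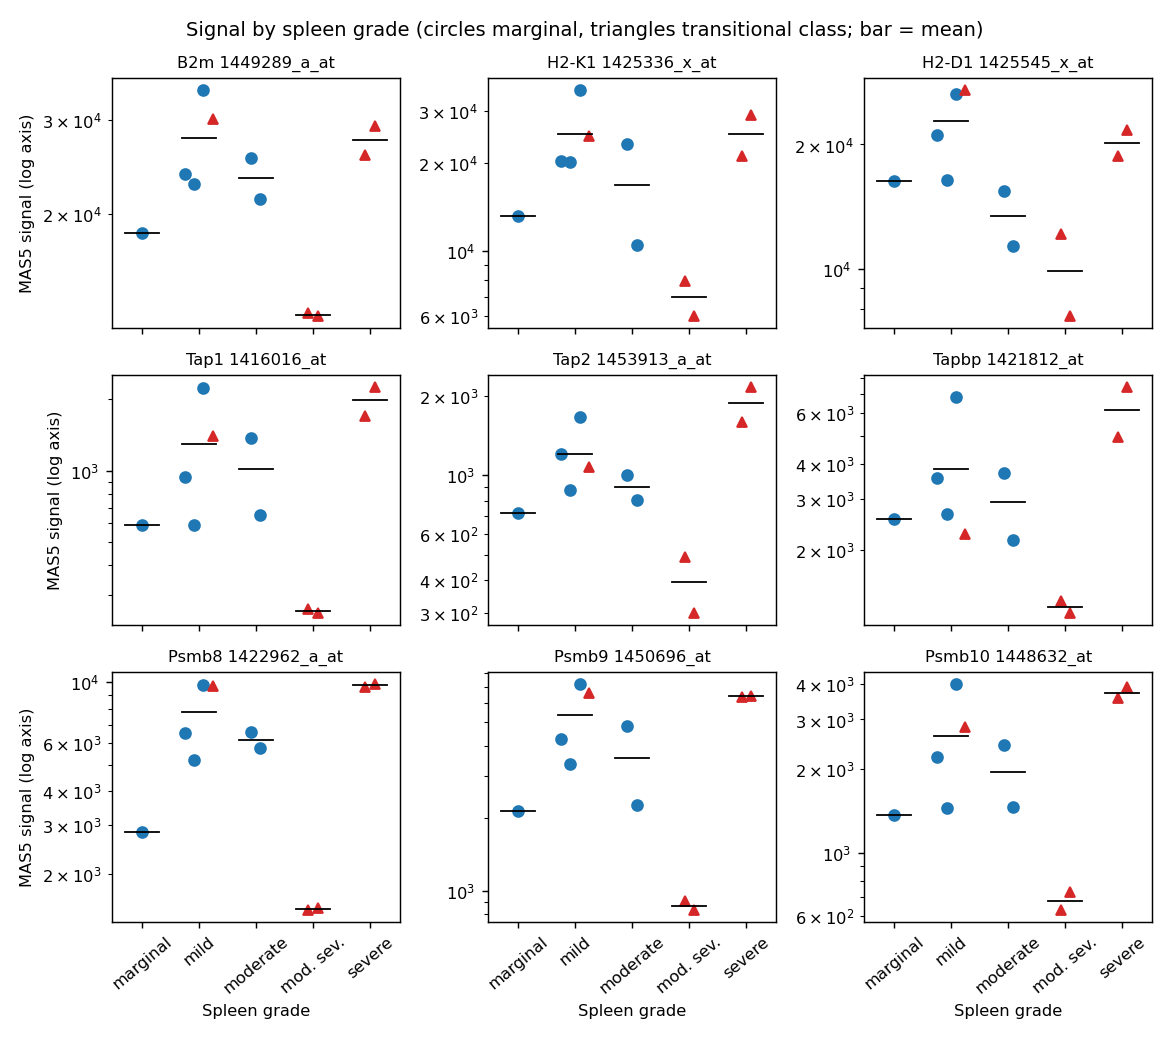
MAS5 signal (log axis) of the brightest probe set of each of the 9 genes against spleen grade, with circles for marginal and triangles for transitional lymphomas and a bar at each grade's mean. In 8 of the 9 panels both moderately severe arrays lie below every other array, as for B2m at 13091 and 12887, and H2-D1 is the exception.

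Over the array as a whole, 24.3% of the 13576 tested probe sets were called between the moderately severe and the severe pair, 9.4% higher and 14.9% lower. Of the 22 class I probe sets 20 were called lower and 0 higher. The remaining ones, 1426324_at of H2-D1 and 1450378_at of Tapbp, were lower with an adjusted p of 0.0981 and 0.0977. The median log2 difference of the 9 genes was −2.26, against −0.22 for all tested probe sets. Both moderately severe arrays lay below the other 9 in 12 of the 22 class I probe sets (54.5%), as in 20.3% of all tested probe sets. Each group holds 2 lymphomas, both transitional, and with transitional 1, 2 or 5 left out the count of class I calls fell to 9, 6 and 9, and that of all calls to 1269, 1862 and 858. All 22 kept the lower direction under quantile normalization, with 17 called lower, as were 1411 of the 13576 tested probe sets. Under median scaling all 22 kept it too, with 14 called lower, as were 1086 of the 13576. Median scaling moved the median of all probe sets from −0.22 to 0.18, and the split of all calls from 38.7% to 66.8% higher. Relative to that median, the 9 genes stood at −2.03 as deposited and −2.01 with median scaling.

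Against the mild grade the picture was similar for the brightest probe set of each gene. The mild grade holds 3 marginal lymphomas and 1 transitional, so class differed too. The moderately severe pair was called lower in 17 of 22 class I probe sets, covering all 9 genes, where 14.3% of all tested probe sets were called lower and 7.42% higher (21.7% in all). Psmb9 differed by −2.54 (SE 0.36, limma adjusted p = 0.00349) and B2m by −1.07 (SE 0.20, adjusted p = 0.00694). The rest, not called, were 1450378_at of Tapbp, lower by a log2 difference of −0.96, and 4 H2-D1 probe sets. Of these, 1450170_x_at (1.08), 1427651_x_at (0.76) and 1452544_x_at (0.23) were higher in the moderately severe pair, and 1425614_x_at (−0.40) was lower. Without transitional 4 or 5 the moderately severe grade holds 1 array, and calls fell in class I and over the whole array alike. With each array left out in turn the median log2 difference of the 9 genes ran from −1.92 to −1.60. Against the moderate grade, which was held by marginal lymphomas only, 8 of 22 were called lower, 1 in each gene but Tapbp (of all tested probe sets 13.7% were lower, 7.51% higher and 21.2% called in all). The H2-D1 call was that of 1450170_x_at (limma adjusted p = 0.0485), while 1425545_x_at, 1451784_x_at, 1451683_x_at and 1426324_at were not called (adjusted p of 0.148 to 0.355). Psmb8 had the smallest adjusted p there, with a log2 difference of −2.04 (SE 0.31, limma adjusted p = 0.00466). That count was 4 without marginal 2, where all calls fell from 2878 to 2271. Without marginal 5, transitional 4 or transitional 5, 1 of these grades holds 1 array, and calls fell in class I and over the whole array alike. The log2 difference of Psmb8 was then, in that order, −1.95, −2.03 and −2.06.

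Between the severe and the mild grade no class I gene was called, nor any other probe set of the array (0 of 13576, 0%), with 993 at an unadjusted p under 0.05. B2m differed by 0.01 (SE 0.20), H2-K1 by 0.02 (SE 0.34) and Psmb8 by 0.37 (SE 0.27). Of the 22 class I probe sets 4 had an unadjusted p under 0.05, and these were the same 4 H2-D1 probe sets that were not called against the mild grade. The first of them, 1450170_x_at, was higher by 5.12 (SE 0.82, limma adjusted p = 0.197). Transitional 4 and 5 are in neither grade, and the difference stayed at 5.12 with either left out. Leaving 1 of them out changes only the error of the fit, to which their readings of 129 and 2504 then no longer add. Such a fit therefore says nothing more about severe against mild.

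Marker transcripts of B cells, the lineage of these lymphomas, and of several other cell types moved with the moderately severe pair. Of 9 tested B cell markers 8 were called lower than in the severe pair (median −2.24). The summed signal of all 9 was 10698 on transitional 4 and 7138 on transitional 5, against 26432 to 89575 on the other arrays. All 10 erythroid markers were called higher (median 4.45), summing to 106162 and 87506 against 2529 to 72906. All 8 T cell markers were called lower, summing to 1532 and 179 against 2193 to 21081. So were 4 of 6 NK and cytotoxic markers, where all 6 summed to 1292 and 781 against 1350 to 10850. Of 8 neutrophil markers 4 were called higher, and all 8 summed to 154412 and 88217 against 8838 to 197192. For macrophage markers (7 tested, 3685 and 4539 against 1581 to 38029) and dendritic cell markers (7 tested, 445 and 1604 against 1081 to 3199) the count was 0. No marker read 0 on any array. The part of these cells in the lower class I signals was not tested, and in such bulk RNA fewer cells of a type and less RNA per cell cannot be told apart.

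Other genes of the pathway did not all go the same way between the moderately severe and the severe pair, and their counts stand beside the 14.9% lower and 9.4% higher of all tested probe sets. Among 9 tested class I and class I-like chains beyond these 9 genes, 4 were called lower and 1 higher (median log2 difference −1.55). Fcgrt, the neonatal Fc receptor chain that carries IgG, fell by 3.20 on the log2 scale (SE 0.49, limma adjusted p = 0.00405). H2-M3, which presents formylated peptides, fell by 2.51, and Mr1, which presents vitamin B metabolites, by 1.55. H2-Q5 fell by 2.69 but was dim, at 5 to 353 over the arrays. H2-T24 rose (limma adjusted p = 0.0189), reading 988.5 and 803 in the moderately severe pair against 165 to 433 on the other arrays. Those values place H2-T24 opposite to the classical chains in the same arrays.

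Peptide loading and trimming beyond Tap and tapasin included 14 tested genes, of which 2 were called lower and 0 higher (median −0.37), a share close to that of all tested probe sets. These were Tapbpl, a tapasin-related peptide editor, which fell by 2.82 (SE 0.44, limma adjusted p = 0.00423), and Erap1, the aminopeptidase that trims peptides in the endoplasmic reticulum, which fell by 1.98 (SE 0.27, adjusted p = 0.0035). Thop1, a peptidase of the cytosol, stood at 0.91 (adjusted p = 0.0905) and was called higher under quantile normalization (0.0382) and median scaling (0.0286). Of the general chaperones of the endoplasmic reticulum, Calr stood at −0.17 and Canx at −0.04, values whose sign turned under median scaling. Hspa5 stood at −0.58 (adjusted p = 0.162) and Pdia3 at −0.70 (adjusted p = 0.0845), and Pdia3 was called lower under quantile normalization (0.0451). Of the constitutive catalytic subunits, Psmb7 was called higher, by 1.11 (SE 0.35, limma adjusted p = 0.0437), while Psmb5 stood at 0.29 (SE 0.24, adjusted p = 0.406) and Psmb6 at 0.13 (SE 0.26, adjusted p = 0.757), where the sign of Psmb6 turned under quantile normalization.

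The proteasome activators split. Psme1, a subunit of the activator PA28 that interferon-gamma induces, fell by 1.54 (SE 0.32, limma adjusted p = 0.00987), reading 2733 and 2313 in the moderately severe pair against 3761 to 8511 elsewhere. Psme3, which forms the nuclear PA28 complex, rose by 1.75 (adjusted p = 0.0192), and Psme4, the activator PA200, by 1.12 (adjusted p = 0.033), a call lost under quantile normalization (0.0513). In all, 2 of 6 tested activator and assembly genes were called higher and 1 lower. Among 18 tested regulators of class I transcription and interferon signalling 4 were called lower and 1 higher (median −0.62). Irf1, an interferon-induced activator of class I and immunoproteasome genes, fell (limma adjusted p = 0.00713), from 3127 and 3639 in the severe pair to 332 and 501. Irf2, which binds the same element, fell by 2.33, Stat2 by 1.46 and Rfx5, a part of the complex on class I and class II promoters, by 1.57, and Nfyb rose by 0.80. The calls of Stat2 and Rfx5 were lost under quantile normalization (0.062 and 0.0561) and median scaling (0.0614 and 0.0672), and Jak1, at −0.94 (adjusted p = 0.0714), was called lower under quantile normalization (0.0445).

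**Figure D3:**
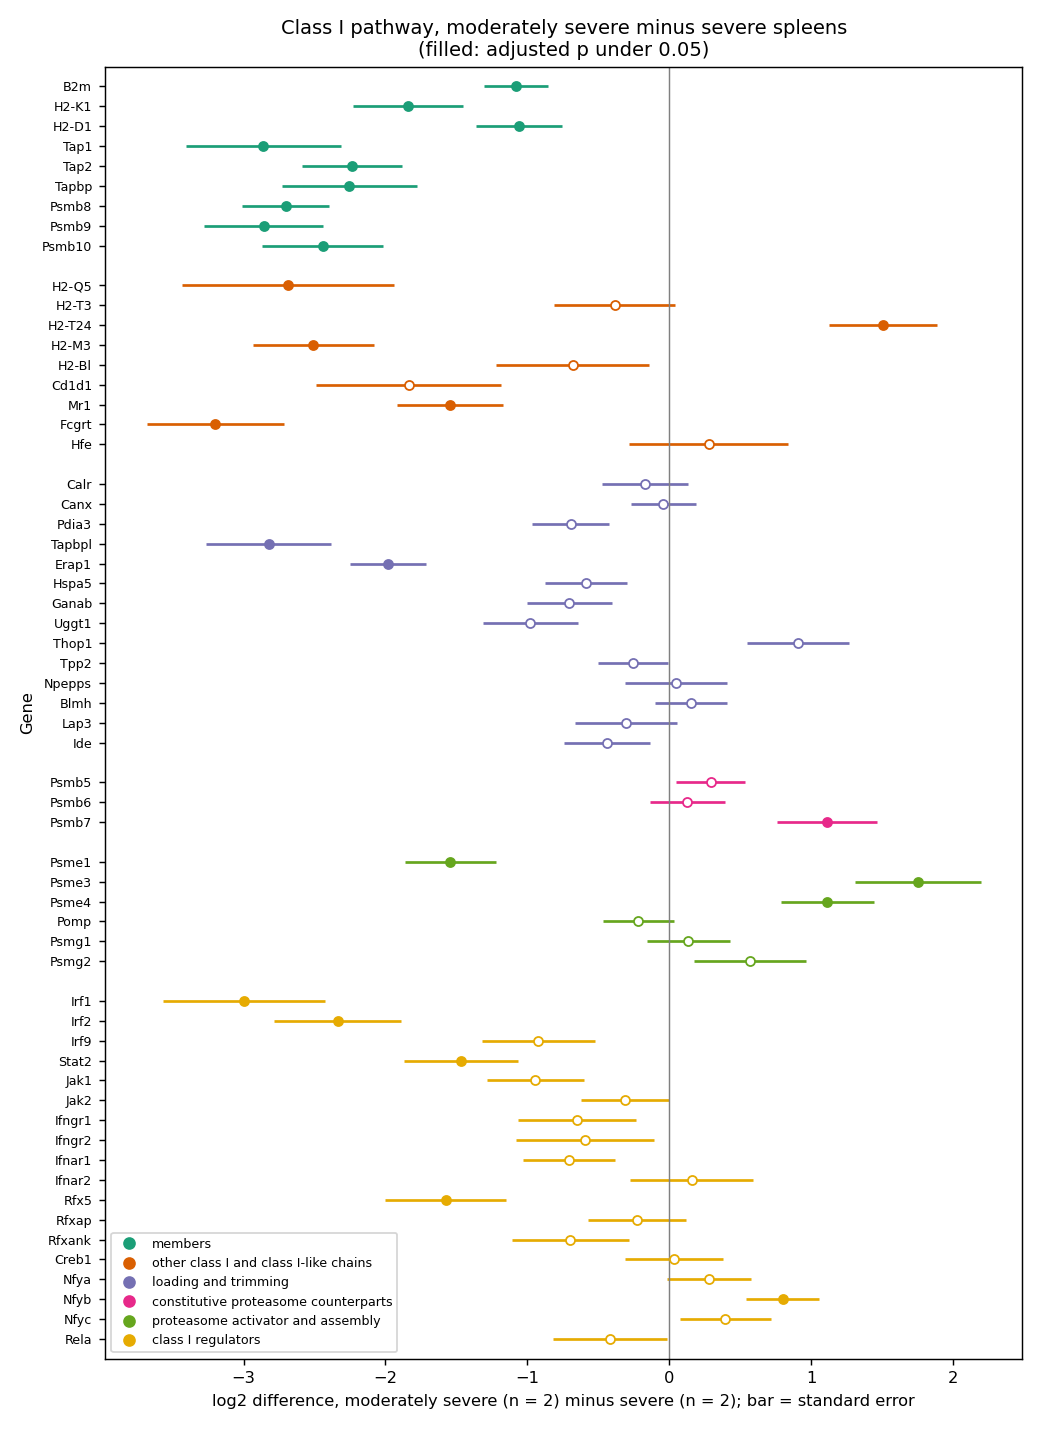
Log2 difference between the moderately severe and the severe pair (x axis, bar = standard error) for the 9 class I genes and 50 further genes of the pathway, with filled points where the adjusted p is under 0.05. The class I genes lie between −2.86 and −1.06, while Psmb7, Psme3, Psme4, H2-T24 and Nfyb lie above 0.

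Comparing the immunoproteasome with its constitutive counterparts inside each array removes the scaling between arrays. The log2 ratio of Psmb8 to Psmb5 was −0.88 on transitional 4 and −0.82 on transitional 5, against 0.23 to 2.46 on the other arrays. For Psmb9 over Psmb6 the values were −1.63 and −1.57 against −0.10 to 1.39, and for Psmb10 over Psmb7 −3.85 and −3.75 against −2.57 to −0.07. All 3 ratios were lowest on the moderately severe pair, with marginal 1, marginal 6 or marginal 3 next. The height of a ratio depends on the probes, so its zero has no meaning and only arrays can be compared. By class the transitional minus the marginal mean was −0.40, −0.53 and −0.20 on the log2 scale, and the exact permutation test over all splits of the arrays gave two-sided p of 0.6, 0.446 and 0.814 (0.814 for each after adjustment over 3 ratios). The smallest p this design can give is 0.00216. Without transitional 4 and 5 the sign of all 3 class differences turned, to 0.80, 0.61 and 1.11.

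**Figure D4:**
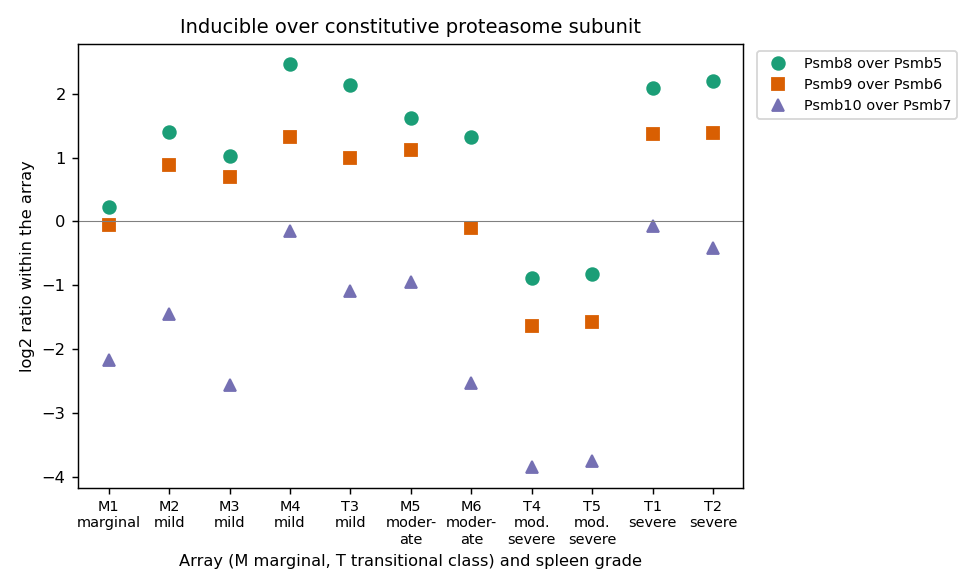
Log2 ratio of each inducible proteasome subunit to its constitutive counterpart on each array (x axis, ordered by spleen grade). Psmb8 over Psmb5 lies at −0.88 and −0.82 on transitional 4 and 5 and between 0.23 and 2.46 elsewhere.

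No class I gene was called between the transitional and the marginal class. On the brightest probe set of each gene the differences were smaller than the spread within each class. For H2-D1 1450170_x_at (means of 1775 marginal and 4568 transitional) and 1427651_x_at (110 and 192) they exceeded the marginal SD (2488 and 78.5). B2m averaged 24329 ± 5365 (SD, n = 6) in marginal and 22229 ± 8584 (SD, n = 5) in transitional lymphomas, Tap1 1065 ± 647 and 1174 ± 893, and Psmb8 6115 ± 2252 and 6431 ± 4518. The class groups overlapped in all 22 probe sets (31 of all tested probe sets, 0.228%, did not overlap). None of the 13576 probe sets was called (0%) and 454 had an unadjusted p under 0.05, with 0 of the 22 among them. The brightest probe set of each of the 9 genes was lower in transitional lymphomas on the log2 scale, with a median of −0.20 against −0.06 for all tested probe sets, although the means of the linear signals of Tap1, Tap2, Psmb8, Psmb9 and Psmb10 were higher. That direction rested on the moderately severe pair: without transitional 4 and 5 all 9 were higher, with a median of 0.62 against 0.02 for all. Psmb8 then differed by 0.76 (SE 0.31, unadjusted p = 0.0314, limma adjusted p = 0.558) and Tap1 by 0.89 (SE 0.41, adjusted p = 0.63). No probe set was called in that fit either, and 4 of the 22 had an unadjusted p under 0.05, as had 7.95% of all. Of the 22, 0 stood above all marginal arrays on each of transitional 1, 2 and 3, as did 1.16% of all tested probe sets. On those arrays the T cell markers, with 0 called, also stood higher in the transitional class, in 8 of 8 genes with summed signals of 10162 to 21081 against 2193 to 8755, and the 10 erythroid markers lower, at 2529 to 9739 against 23015 to 72906. What part these have in the class I values was not tested.

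Probe sets of a single gene mostly rose and fell together. For B2m, Pearson's r over the 11 arrays was 0.984 (permutation p = 1e-05, the smallest that the resampling can give) and Spearman's rho 0.991 (permutation p = 1e-05), and r was 0.986 without transitional 4 and 5, the arrays farthest from the median. For Tap1, r was 0.849 (permutation p = 0.00137) and rho 0.845 (permutation p = 0.0018), with r of 0.72 without the same arrays. For Tapbp, r was 0.866 (permutation p = 0.00076) and rho 0.827 (permutation p = 0.00294), with r of 0.766 without transitional 2 and marginal 4. All of these held after adjustment over the 37 pairs computed (adjusted p of 7.4e-05, 0.00317 and 0.00187 for r). The 6 pairs of H2-K1 had r of 0.778 to 0.963, though the brightest read up to 35362 and the dimmest, 1450534_x_at, 125 to 1419. Among the H2-D1 probe sets 1425545_x_at, 1451784_x_at, 1451683_x_at and 1426324_at r ran from 0.907 to 0.988.

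The other 4 tested H2-D1 probe sets, of lower mean log2 signal, disagreed with those. The probe set 1450170_x_at read 145 at the marginal grade, 261, 228, 258 and 345 at the mild, 5888 and 3871 at the moderate, 129 and 2504 at the moderately severe, and 9722 and 10139 at the severe grade. It stood at 2504 or more on marginal 5, marginal 6 and transitional 1, 2 and 5 and at 345 or less on the other 6, so its signals form 2 separate ranges that cross the classes and no correlation over all arrays is given for it. The probe set 1427651_x_at read 77 at the marginal grade, 51.8, 52.4, 78.1 and 44.7 at the mild, 253 and 148 at the moderate, 63.4 and 169 at the moderately severe, and 289.9 and 392 at the severe grade. It was thus high and low on the same arrays as 1450170_x_at, at far lower signals. The probe set 1425614_x_at read 38.5, then 50.5, 50.9, 33.2 and 175, then 305 and 102, then 36.2 and 55.5, and 299 and 332, in the same order of grades. The probe set 1452544_x_at read 41.8, then 21, 33.2, 63.1 and 7.8, then 468 and 53.7, then 9 and 86.5, and 359 and 476. Both were highest on marginal 5 and transitional 1 and 2, while the bright 1425545_x_at was highest on marginal 4 and transitional 3. The order of the arrays for H2-D1 therefore depends on the probe set, and which of them binds the H2-D1 transcript of FVB mice was not tested.

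**Figure D5:**
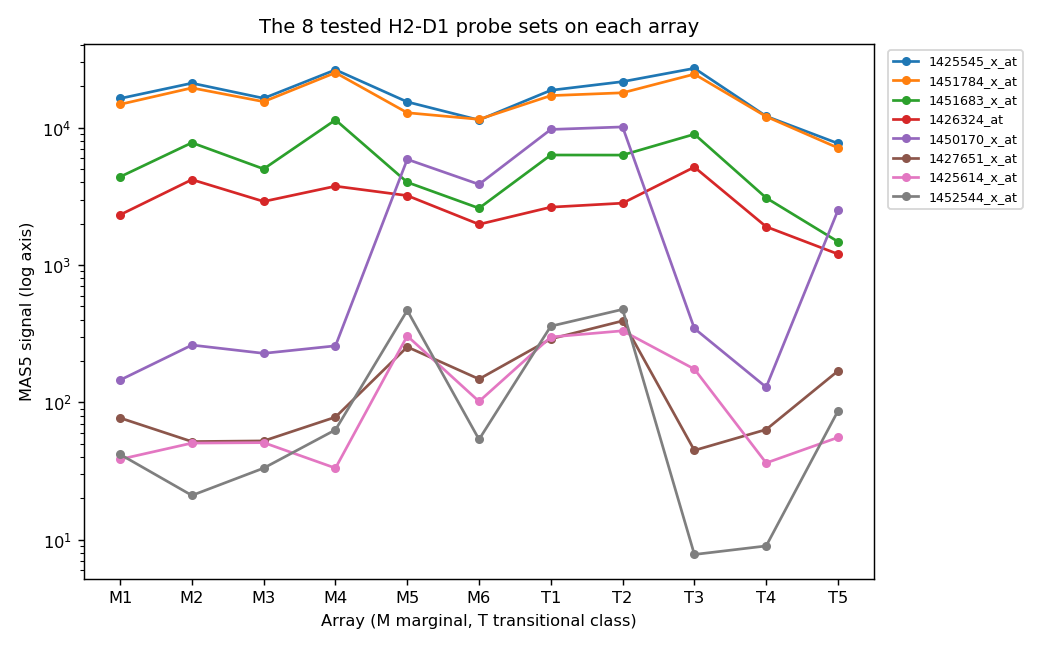
MAS5 signal (log axis) of the 8 tested H2-D1 probe sets on each array, with a line joining the values of a probe set. The bright 1425545_x_at stays between 7693 and 27106, while 1450170_x_at is at 129 to 345 on 6 arrays and at 2504 to 10139 on 5.

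As an ordered trend over the 5 spleen grades, 0 of 13576 probe sets were called (0%), and 292 (2.15%) had an unadjusted p under 0.05. Of the 22 class I probe sets 4 did, all from these 4 H2-D1 probe sets. The slope was 1.35 per grade (SE 0.37) on the log2 scale for 1450170_x_at and 0.55 (SE 0.15) for 1427651_x_at, both with a limma adjusted p of 1. The brightest probe sets of the 9 genes had a median slope of −0.02. With class in the model 0 were called again (298 at an unadjusted p under 0.05), but without transitional 3, the only mild transitional lymphoma, 1145 were called. Of the 22 class I probe sets 2 were among these 1145, a share close to that of all 13576. They were 1450170_x_at, at 3.09 per grade (adjusted p = 0.023), and 1425614_x_at, at 1.41 (adjusted p = 0.0345). The interaction of class with grade called 0 probe sets.

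Over the 11 arrays, the genes whose profile was most like the mean standardised profile of the 9 class I genes, of 7731 ranked by Pearson's r, were Etv3 (0.981), Tecpr1 (0.976), Ly9 (0.972), Parp14 (0.970) and Zbp1 (0.967). Their r without transitional 4 and 5 was 0.928 to 0.971. The class I profile itself was lowest on transitional 5 (−1.75 SD units) and transitional 4 (−1.45), followed by marginal 1 (−0.47) and marginal 6 (−0.44), and highest on marginal 4 (1.17) and transitional 2 (1.07). Ly9, a surface receptor of the SLAM family on lymphocytes, read 76.6 and 77.8 in the moderately severe pair, 1124.5 and 1142 in the severe pair and 328 to 1100.3 on the other arrays.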

How the data were processed

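The deposited values are linear array intensity values, and the submitters' processing notes name MAS5 as the tool. The version and the annotation used by the authors are not given in the sources used here. Labelled cRNA was made from poly-dT primed cDNA of total RNA, per the labels' protocols. The 2% trimmed mean was computed for the first array only, and whether all arrays share it was not checked. Were the arrays scaled to the same mean, a shift of most transcripts in the same direction would not be seen.

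After removal of 64 control probe sets, log2 was taken of the signal plus 16, and the upper 60% of probe sets by mean over all arrays was tested (13576 of 22626). Genes were taken from GEO's platform annotation, updated to RefSeq symbols (20380 probe sets with 1 gene, 691 with several, 1555 with none), and for counts over genes the brightest probe set of each stood for it. Fits used limma 3.58.1 (eBayes with an intensity trend) in R 4.3.3 over all arrays, with two-sided p adjusted by Benjamini-Hochberg. Spleen grade was fitted as a rank of 1 to 5 and, chosen after the first results, as 5 unordered groups. Correlations used 100000 permutations, and class differences of ratios the exact permutation test. Windows were aligned with Biopython. The fit of the class difference was tested on simulated data with known changes, and the other fits were not. The members, the gene and marker lists and the tests were chosen with earlier results of these data known. Named genes are all members, the genes of each pathway list that were called, the constitutive subunits, and the 5 genes most like the members' mean profile. Calr and Canx were named after their values were seen. Alternatives covered the offset, normalization, filter, variance model, array weights, replicate number as a block, and arrays left out. No batch record was used.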

Additional observations from a re-analysis of the deposited data

Results flagged for a closer look

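In 6 of 50 sets of values checked (each probe set and each ratio within a class), a single array stood apart from the others of its class by more than Dixon's limit. The limit flags about 1 in 20 sets of independent, normally distributed values. Here signals were checked on the linear scale and the sets share genes and arrays, so 6 of 50 cannot be read against that rate. Marginal 4 was high for B2m (1452428_a_at, 34701 against 22861 on the next marginal array), H2-K1 (1450534_x_at, 1419 against 602) and both Tapbp probe sets (1421812_at, 6828 against 3710.3, and 1450378_at, 1725 against 779.8). This lymphoma presented as a leg tumor with a mildly enlarged spleen, and its summed B cell marker signal, 89575, was the highest of the 11 arrays. Marginal 5 was high for the H2-D1 probe sets 1425614_x_at (305 against 102) and 1452544_x_at (468 against 63.1). On that array the bright H2-D1 probe set 1425545_x_at read 15429, below 4 of the other 5 marginal arrays.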

How the results depend on the processing

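The class comparison kept 0 calls under every alternative run for it, array left out included, but the direction of the class I genes in it did not hold. With array weights the differences turned to 0.068 for B2m, 0.042 for H2-K1, 0.089 for H2-D1, 0.55 for Tap1, 0.29 for Tap2, 0.15 for Tapbp, 0.32 for Psmb8, 0.32 for Psmb9 and 0.43 for Psmb10. Without transitional 4 and 5 they were, in that order, 0.25, 0.38, 0.37, 0.89, 0.62, 0.40, 0.76, 0.81 and 0.77, and the ratios of Psmb8, Psmb9 and Psmb10 to their counterparts turned to 0.80, 0.61 and 1.11. Median scaling gave 0.012 for H2-D1, and only animals that failed to nest gave 0.13 for Tap1 and 0.0039 for Psmb10. Leaving out each array in turn gave −0.30 to 0.15 for H2-D1, −0.55 to 0.23 for Tap1, −0.49 to 0.21 for Tap2, −0.60 to 0.088 for Psmb8, −0.63 to 0.11 for Psmb9, −0.44 to 0.22 for Psmb10 and −0.23 to 0.87 for 1452544_x_at, and −0.71 to 0.060 and −0.64 to 0.31 for the ratios of Psmb8 and Psmb10.

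Between the moderately severe and severe pairs, class I calls ran from 6 to 21 of 22 and all calls from 858 to 3447 with an array left out. Against the moderate grade these were 1 to 10 and 509 to 3144, and against the mild 3 to 17 and 265 to 3553. Class I calls against the moderate grade fell to 3 with median scaling, with no filter and with class added, and severe against mild gave 1 call over the array with class added, and 0 to 34 calls (0 to 1 in class I) with an array left out. The trend with class gave 0 to 1145 calls (0 to 2 in class I). The causes were not tested. No alternatives were run for the interaction.

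Sample numbers are shared by the classes, but same-numbered samples did not deviate together (correlations −0.45 to −0.09). The fit with the replicate block called 0 probe sets in the class comparison, as did the fit without it. Dim probe sets limit what can be read of H2-D1 and Tap1.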
